A study of Mus musculus with 4 samples.

Results

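Type 2 lymphocytes of the small intestine were examined in single-cell RNA sequencing of cells sorted as group 3 innate lymphoid cells (ILC3s). A cell was counted as a type 2 cell when it held at least 2 unique molecular identifiers (UMIs, each a counted RNA molecule) over Il13, Il5, Il4, Il17rb and Calca, and at most 1 UMI over the collagen genes Col1a1 and Col3a1. That rule found 216 of 6130 kept cells, 31 of 1945 in replicate 1 and 185 of 4185 in replicate 2. Of these, 186 cells (22 and 164) held a UMI of Cd3e or Trac, genes of the T cell receptor complex, and are called Th2-like. The other 30 cells (9 and 21) held neither. They are called type 2 cells without Cd3e and Trac here, because their further genes, given at the end, went against the label of group 2 innate lymphoid cells (ILC2s).

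Mice aged 6 to 8 weeks with a floxed Cxxc1 allele and a cre were the source of the cells, taken from the lamina propria of the small intestine. Every sample carried both the floxed allele (Cxxc1flox/flox) and the cre, so no sample of a control genotype was analysed here and the samples form a single group. Whether each cell had lost Cxxc1 was not tested. The 4 labelled samples are 2 replicates with 2 sequencing libraries each, and both libraries of a replicate share 1 table and 1 sample tag. The labels do not say whether the replicates are separate animals. With replicate as a block, the p-values measure only how differences between cell classes varied across these 2 replicates, pooled over genes. That variation may be technical. Cxxc1 stood at 95.7 and 81.0 counts per 1000000 UMIs (CPM) in Th2-like cells, with 89.7 and 76.1 CPM in other T cells. The labels do not say which exons are floxed, so these counts do not check the deletion.

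Type 2 immunity is the arm of the immune system that acts against worms and drives allergy. Its T helper cells (Th2 cells) and ILC2s share the transcription factor GATA3 and release IL-4, IL-5 and IL-13, which raise antibody class switching, eosinophil numbers and mucus respectively. Il17rb encodes a subunit of the receptor for IL-25, a cytokine released by tuft cells of the gut lining. Calca encodes the neuropeptide CGRP. Il4, Il13 and Il5 lie next to each other in the genome with Rad50 between them, in what is known as the type 2 cytokine locus.

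The sequences just upstream of 3 of the genes that chose the cells, and the interval that Il17rb shares with its neighbour Chdh, are shown because GATA3 acts on this class of gene and because a neighbour of Il17rb leads the comparison below. They are RefSeq's, on GRCm38.p6, 5′ to 3′ on the strand of the named gene. Capitals mark GATAA, a short form of the motif bound by GATA factors, searched on both strands (TTATC on the other), and no other motif was searched. The windows lie at chr11:53634703-53634952 (Il13, minus strand), chr11:53720544-53720793 (Il5, plus strand), chr7:114636358-114636607 (Calca, minus strand) and chr14:30008897-30009022 (Il17rb and Chdh).
Il13: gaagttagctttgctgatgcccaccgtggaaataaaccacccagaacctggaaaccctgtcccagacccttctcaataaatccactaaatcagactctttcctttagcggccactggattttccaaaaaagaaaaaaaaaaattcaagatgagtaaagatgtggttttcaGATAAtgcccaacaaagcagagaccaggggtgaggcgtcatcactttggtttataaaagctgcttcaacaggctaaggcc
Il5: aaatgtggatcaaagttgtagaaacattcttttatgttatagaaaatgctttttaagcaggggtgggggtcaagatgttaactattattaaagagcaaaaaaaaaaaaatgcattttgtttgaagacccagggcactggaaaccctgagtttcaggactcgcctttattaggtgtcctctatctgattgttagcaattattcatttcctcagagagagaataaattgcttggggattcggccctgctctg
Calca: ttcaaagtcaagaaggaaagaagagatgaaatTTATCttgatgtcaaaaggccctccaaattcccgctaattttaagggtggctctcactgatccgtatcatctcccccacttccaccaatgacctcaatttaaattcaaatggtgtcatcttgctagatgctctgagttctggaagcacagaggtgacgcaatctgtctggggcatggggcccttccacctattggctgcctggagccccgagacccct
Il17rb to Chdh: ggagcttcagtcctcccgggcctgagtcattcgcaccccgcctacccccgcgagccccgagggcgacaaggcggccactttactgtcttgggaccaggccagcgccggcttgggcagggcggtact
The Il13 window held 1 GATAA and the Calca window held 1 TTATC, while these letters were not found in the Il5 window or in the shared interval. Of 32851 promoter windows of 250 bases, 7418 (22.58%) held the motif on either strand, so a match is common by its length alone.

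The tags used marked 2077 of 8064 captured cells in replicate 1 and 4532 of 15793 in replicate 2, with 11939862 and 12141164 UMIs. Barcodes of 7 cells used were the same in both captures. Scrublet marked 39 cells (2.01%) in replicate 1 and 6 cells (0.143%) in replicate 2, none of them type 2 cells, and at that share it has not worked in replicate 2, so doublets must be taken as present there. Median depth was 3116 and 2645 UMIs per Th2-like cell. It was 2698 and 2121 per other T cell, a class of 171 and 1172 cells outside the rule with at least 1 UMI of both Cd3e and Trac. The sums tested below held 73174 and 469320 UMIs for Th2-like cells, so replicate 2 carried most of the UMIs. Of 13 mast cell or basophil markers Th2-like cells held UMIs of 0 and 2 (Cpa3 and Hdc in replicate 2). The 13 markers summed to 0 and 102 CPM, against 17.2 and 21.9 CPM in other T cells. In Th2-like cells Mcpt8, Fcer1a and Ms4a2 stood at 0, and of 4 eosinophil markers they held none. Markers of macrophages, monocytes or dendritic cells summed to 27.3 and 46.9 CPM (61.1 and 56.8 in other T cells), and those of plasma or B cells to 4195 and 550 CPM (4987 and 532).

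Type 2 cells made up 1.59% of kept cells in replicate 1 (exact binomial 95% interval 1.09 to 2.26) and 4.42% in replicate 2 (3.82 to 5.09). These intervals cover counting error only, and shares depend on depth and on the sort. The kept cells differed in make-up between replicates. Cells with more than 1 collagen UMI numbered 981 in replicate 1 and 573 in replicate 2. Those with more than 1 UMI of the plasma cell gene Mzb1, outside the rule, numbered 418 and 28. Beside the 22 and 164 Th2-like cells stood 171 and 1172 other T cells, so the 2 shares do not compare like with like. Values of the 5 genes that chose the cells are a description, with no test. Il17rb was found in most Th2-like cells, 17 of 22 in replicate 1 and 127 of 164 in replicate 2, at 683 and 754 CPM. In other T cells Il17rb was found in 1 of 171 and 5 of 1172. Calca was found in 10 and 79 Th2-like cells, at 560 and 712 CPM. Il4 was found in 10 and 75 cells, at 205 and 386 CPM. Il13 was found in 5 and 55 Th2-like cells, at 342 and 477 CPM, and Il5 in 5 and 60, at 164 and 369 CPM.

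The highest single Th2-like cell of replicate 2 held 22 UMIs of Il13, 20 of Il5 and 21 of Il4. Of the 164 Th2-like cells of replicate 2, 45 held UMIs of 1 of the 5 genes, 42 of 2, 46 of 3, 26 of 4 and 5 of all 5. Il13 and Il5 were found together in 31 of these cells and Il13 and Il4 in 36. Il17rb accompanied Il5 in 57 of the 60 Il5-positive cells and Il13 in 51 of the 55 Il13-positive cells. Calca was found with Il13 in 20 cells. The rule left out cells with a single UMI over these 5 genes. The counts of genes found together are therefore raised in part through the rule and are a description. A cell in which a gene was not found may still express it at this depth.

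Cells just inside the rule had Gata3 and Hlf levels between those of the cells just outside it and those of the rest. The 7 and 37 cells with exactly 2 UMIs over the 5 genes had Gata3 at 310 and 365 CPM and Hlf at 221 and 183 CPM. The 18 and 89 cells with 1 UMI, outside the rule, had Gata3 at 161 and 268 CPM and Hlf at 69.0 and 90.8 CPM. Cells with more than 2 UMIs had Gata3 at 542 and 944 CPM and Hlf at 865 and 1130 CPM. Cd3e did not follow this order in replicate 2, at 620 and 913 CPM just inside, 287 and 597 CPM just outside and 697 and 865 CPM with more than 2 UMIs. A further 12 and 26 cells passed the 5 genes but held more than 1 collagen UMI, and their Gata3 stood at 723 and 578 CPM.

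**Figure D1:**
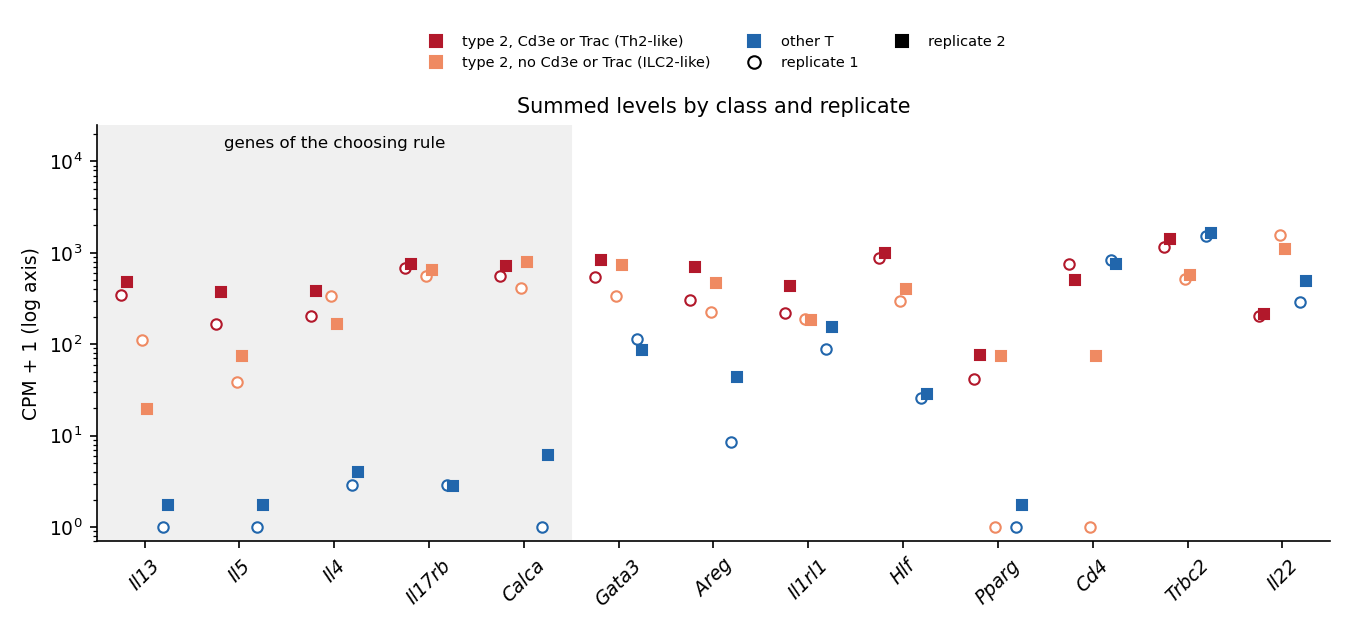
Levels of genes in CPM plus 1, on a log axis, in the summed cells of each class and replicate (open circles replicate 1, filled squares replicate 2). Shading marks the 5 genes of the choosing rule; outside it, both replicates of Th2-like cells lie above both replicates of other T cells for Gata3, Areg, Il1rl1, Hlf and Pparg, while for Cd4 both lie below and the difference did not pass.

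The first comparison set Th2-like cells against other T cells, to find what sets the type 2 T cells apart from the T cells around them. Of 6884 genes tested with edgeR's quasi-likelihood test, 330 (4.79%) were higher and 201 (2.92%) were lower in Th2-like cells at a Benjamini-Hochberg adjusted p of at most 0.05. DESeq2 called 184 higher and 72 lower on the same sums. No gene of the rule was tested. The estimated spread was one value shared by all genes, so a gene whose replicates disagree more than others is not penalised for it, and the values of both replicates are therefore given for the genes described most closely.

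Gata3, the factor that sets type 2 fate, stood at 547 and 840 CPM in Th2-like cells against 114 and 85.3 CPM in other T cells. The groups did not overlap, and the log2 fold change was 3.03 ± 0.24 (SE), with an adjusted p of 6e-35 in edgeR. Gata3 was found in 15 of 22 and 119 of 164 Th2-like cells. With every cell thinned to 1500 UMIs, leaving out 0 and 14 shallower Th2-like cells and 2 and 149 other T cells, the share with Gata3 was 50% and 57.3% in Th2-like cells (68.2% and 72.6% unthinned) and 13.0% and 10.1% in other T cells (20.5% and 13.6% unthinned). In plasma cells, which should lack Gata3, the thinned share was 0.240% (1 of 417 cells) in replicate 1 and 7.41% (2 of 27) in replicate 2. The few plasma cells of replicate 2 do not set its share of 10.1% in other T cells apart from background.

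Of 12 effector genes tested outside the rule, 8 were higher in Th2-like cells and 0 were lower (median log2 fold change 2.01, against -0.03 over all genes tested). Areg, which encodes the tissue repair factor amphiregulin, stood at 301 and 695 CPM against 7.63 and 43.4 CPM, a log2 fold change of 4.24 ± 0.27. Il6, an inflammatory cytokine, stood at 219 and 173 CPM against 5.73 and 2.23 CPM, a log2 fold change of 6.02 ± 0.47. Both were higher in both replicates, with no overlap between classes, and both passed in each of the 11 alternative fits. Ccl1, a ligand of the chemokine receptor CCR8, stood at 27.3 and 279 CPM against 1.91 and 2.23 CPM. Tnfsf8, the ligand of CD30, stood at 273 and 501 CPM against 43.9 and 165 CPM. Tph1, the enzyme that starts serotonin synthesis, stood at 219 and 38.4 CPM, but its UMIs came from 2 and 7 cells. Other T cells held 2 Tph1 UMIs in all, a pooled ratio of 101 with a counting interval of 25.9 to 867. Csf2, Il2 and Lif passed in edgeR, but not in every alternative fit, and Csf2 stood at 27.3 and 107 CPM against 24.8 and 24.1 CPM.

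Receptor genes split. Of 19 tested, 7 were higher and 2 lower, and the median was -0.04. The 7 that were higher kept their calls in each alternative fit that tested them. Il1rl1, the receptor for the alarmin IL-33, stood at 219 and 432 CPM against 87.8 and 155 CPM, a log2 fold change of 1.57 ± 0.25. The replicates of the 2 classes did not overlap, although 173 of 1172 other T cells of replicate 2 also held an Il1rl1 UMI. In replicate 1 it was found in 3 of 22 Th2-like cells (13.6%), with 50% of its UMIs from 1 cell. There 17 of 171 other T cells (9.94%) held it. In cells thinned to 1500 UMIs the shares were 9.09% and 28.7% in Th2-like cells, against 7.69% and 12.0% in other T cells. Il9r, the IL-9 receptor, had 0 UMIs in replicate 1 and stood at 132 CPM in replicate 2, so its call rested on replicate 2. Ramp3, which pairs with the calcitonin receptor-like receptor, stood at 765 and 673 CPM against 263 and 299 CPM. Cysltr1, a receptor for cysteinyl leukotrienes, and Ptgir, the prostacyclin receptor, had log2 fold changes of 3.28 ± 0.61 and 5.48 ± 0.82. Cysltr1 stood at 54.7 and 40.5 CPM against 5.73 and 4.45 CPM, and Ptgir at 41.0 and 74.6 CPM against 0 and 1.86 CPM. Nmur1, the receptor for neuromedin U, was found in 2 and 7 Th2-like cells and in no other T cell, at least 19.8-fold higher over a floor of 3 UMIs for the pooled class. Il18r1, a chain of the IL-18 receptor, was lower, at 82.0 and 107 CPM against 361 and 644 CPM. Klrg1 was found in 0 and 4 Th2-like cells and was not tested.

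Among 22 transcription factors tested, 8 were higher and 3 lower (median 0.42). Pparg, a nuclear receptor for lipids, stood at 41.0 and 74.6 CPM, against 2 UMIs in all other T cells, a pooled ratio of 113 with a counting interval of 29.1 to 965. Rora, known for its role in ILC2s, was high in both classes, at 1585 and 1800 CPM against 905 and 1131 CPM. Its log2 fold change was 0.84 ± 0.16, and it lost its call in at least 1 alternative fit. Tcf7, a factor of naive and stem-like T cells, was lower, at 0 and 102 CPM against 260 and 343 CPM. Nfkb1, at 765 and 767 CPM against 429 and 370 CPM, and Zfp36l1, at 1818 and 2018 CPM against 926 and 983 CPM, were also higher and kept their calls in each alternative fit that tested them. Irf4, Nfil3 and Tox2 passed as higher and Ets1 and Stat5b as lower in edgeR, but each lost its call in at least 1 alternative fit. Tox2 stood at 54.7 and 104 CPM against 68.7 and 43.8 CPM, so its call rested on replicate 2, and DESeq2 did not call it (adjusted p = 0.63).

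Of 23 T cell genes tested, 1 was higher and 6 were lower in Th2-like cells, and the CD8 genes were not found in them. Cd4 stood at 752 and 509 CPM against 832 and 755 CPM and did not pass (log2 fold change -0.30 ± 0.20, edgeR adjusted p = 0.52), and Trbc2 stood at 1148 and 1428 CPM against 1542 and 1631 CPM. Cd8a had 0 UMIs in both replicates, while other T cells held 430, at least 24.2-fold lower over a floor of 3 UMIs for the pooled class. A count of 0 in 22 and 164 cells allows a share with a UMI of up to 13.6% and 1.83%. Cd8b1 likewise had 0 UMIs and was at least 8.65-fold lower. Cd8a was found in 5 and 124 other T cells. With other T cells limited to those with Cd4 and without Cd8a or Cd8b1, an alternative chosen after seeing the data, 263 genes were higher and 188 lower.

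Of 15 type 1 genes tested, 0 were higher and 10 lower in edgeR (median -0.98), and 3 were lower in DESeq2. Ccl5, a chemokine of effector T cells, fell from 3886 and 5816 CPM to 137 and 232 CPM, a log2 fold change of -4.47 ± 0.20. Cxcr3, the chemokine receptor of type 1 cells, had 84.0 and 67.9 CPM in other T cells and 13.7 and 2.13 CPM in Th2-like cells, where a single cell of each replicate held it. Il12rb2, a chain of the IL-12 receptor, stood at 123 and 104 CPM against 607 and 473 CPM. Ifng and Gzmb disagreed between replicates. Ifng stood at 1736 CPM in replicate 1 and 59.7 CPM in replicate 2 of Th2-like cells, from 3 and 12 cells, and with replicate 1 alone its log2 ratio to other T cells was 0.41. Gzmb stood at 2952 and 707 CPM against 2850 and 2169 CPM, so the replicate 1 values gave no lower level either.

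Type 3 genes had 3 higher and 2 lower of 17, and in DESeq2 none passed in either direction. Il17a, a cytokine of Th17 cells, was found in 36 of 164 Th2-like cells of replicate 2 but in 1 of 22 in replicate 1, at 622 and 27.3 CPM against 92.4 and 99.2 CPM in other T cells. Of the replicate 2 cells, 25 of the 84 with Il13 or Il5 and 11 of the other 80 held Il17a, and 22% of its UMIs came from 1 cell. The replicates pointed in opposite directions, and the fit over both gave a log2 fold change of 2.26 ± 0.25. Doublets of a Th2-like and a Th17 cell were not tested.

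**Figure D2:**
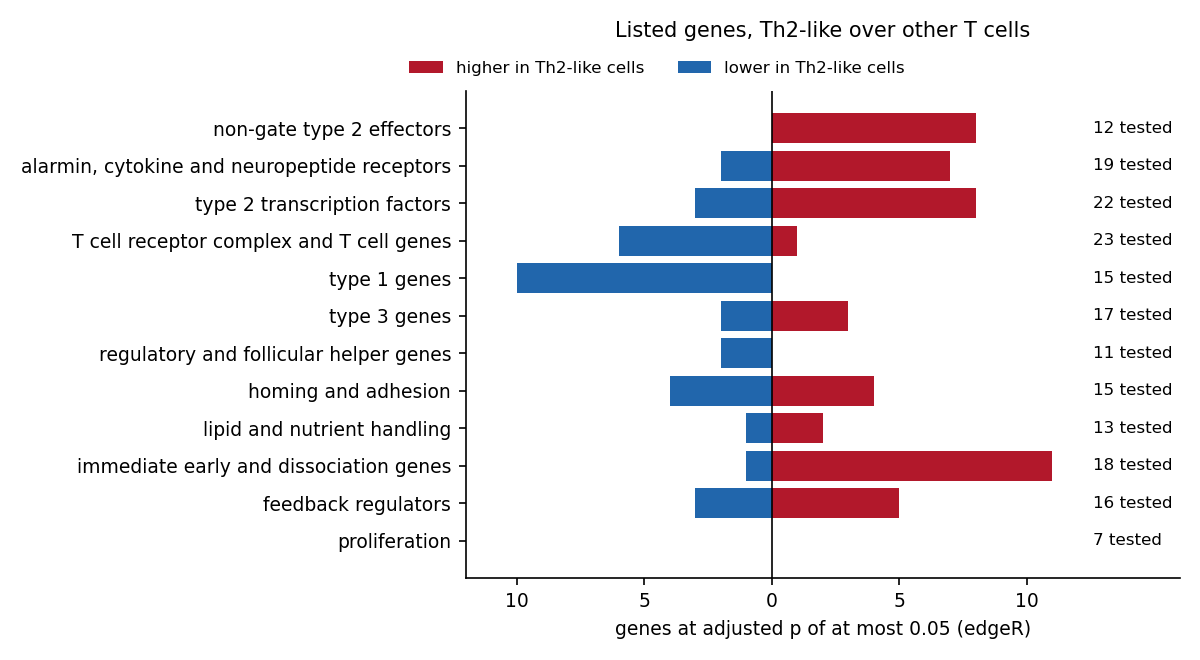
Number of genes of each list that were higher (right, red) or lower (left, blue) in Th2-like cells than in other T cells at an edgeR adjusted p of at most 0.05, with the number tested at the right. Effector genes were 8 higher and 0 lower of 12, and type 1 genes 0 higher and 10 lower of 15.

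Immediate early genes, switched on within minutes of stimulation and also of tissue dissociation, were 11 higher and 1 lower of 18. In DESeq2 8 were higher and 0 lower. Of the 11 higher calls, 5 (Fos, Fosb, Egr1, Nr4a1 and Zfp36) were kept in each alternative fit that tested them. Nr4a1, an early reporter of T cell receptor signals, stood at 1572 and 1590 CPM against 510 and 551 CPM, a log2 fold change of 1.68 ± 0.17. Zfp36, which destabilises cytokine transcripts, had a log2 fold change of 1.85 ± 0.16, and Fos, Fosb and Egr1 between 1.16 and 1.48. Nfkbia, the inhibitor of NF-kB, stood at 3936 and 3090 CPM against 1256 and 1584 CPM. Mitochondrial UMIs moved with this group: the median was 9.0% and 8.9% in Th2-like cells and 6.29% and 6.75% in other T cells, and 31.8% and 31.7% of Th2-like cells exceeded 10% mitochondrial UMIs against 5.85% and 9.73%. The part of dissociation or cell damage in these genes was not tested. With cells above 10% left out, an alternative chosen after seeing the data, 207 genes were higher and 129 lower.

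Of 15 homing and adhesion genes, 4 were higher and 4 lower. Itgb7, whose product forms the gut-homing integrin, stood at 478 and 699 CPM against 304 and 370 CPM, a log2 fold change of 0.94 ± 0.20. Itgae, the chain of the integrin that binds epithelial E-cadherin, fell from 134 and 220 CPM to 0 and 17.0 CPM, a log2 fold change of -3.66 ± 0.45. Ccr9, the gut-homing chemokine receptor, did not pass (984 and 680 CPM against 803 and 531 CPM). Ccr7 had 0 UMIs in replicate 1 and stood at 57.5 CPM in replicate 2, against 1.91 and 11.5 CPM. Its call (log2 fold change 2.41 ± 0.52) rested on replicate 2, where 81% of its UMIs came from 1 cell. Of 13 lipid and nutrient genes, Hilpda, which encodes a lipid droplet protein, was higher at 1093 and 876 CPM against 242 and 283 CPM, as was Slc7a8, while Odc1 was lower. Feedback regulators gave 5 higher and 3 lower of 16. Among them Socs2, a brake on cytokine signalling, stood at 998 and 680 CPM against 101 and 60.8 CPM. DESeq2 did not call Socs2. Regulatory and follicular helper genes gave 0 higher and 2 lower of 11, and proliferation genes 0 of 7 in either direction.

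Sorting by size of change the called genes with at least 50 CPM in both replicates of the higher class put genes outside these lists first. Genes under that limit, such as Pparg, Tph1 and Ptgir, were not ranked. Chdh, a choline-oxidising enzyme, stood at 82.0 and 53.3 CPM against 1.91 and 0 CPM, 1 UMI in all other T cells, for a pooled ratio of 184 with a counting interval of 30.7 to 7497. Ppp2r3a, a regulatory subunit of protein phosphatase 2A, stood at 150 and 179 CPM against 1.91 and 1.11 CPM. Hs3st1, a heparan sulfate sulfotransferase, stood at 54.7 and 213 CPM against 0 and 1.86 CPM. Deptor, an inhibitor of mTOR, stood at 301 and 456 CPM against 3.82 and 4.45 CPM, a log2 fold change of 6.64 ± 0.36. Hlf, a transcription factor of the PAR bZIP family, stood at 875 and 1004 CPM against 24.8 and 27.5 CPM, a log2 fold change of 5.33 ± 0.27, and was found in 14 of 22 and 104 of 164 Th2-like cells. Npnt, an extracellular matrix ligand of integrins, stood at 246 and 66.0 CPM against 3.82 and 2.60 CPM. All 8 of the genes with the largest rise above that limit (these 6 with Il6 and Slc7a8) kept their calls in each alternative fit that tested them. Of the 8 with the largest fall, Ccl5, Gramd3, Cxcr3, Cd7, Itgae, Fam241a and Jaml did so too, and Lax1 lost its call in at least 1.

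**Figure D3:**
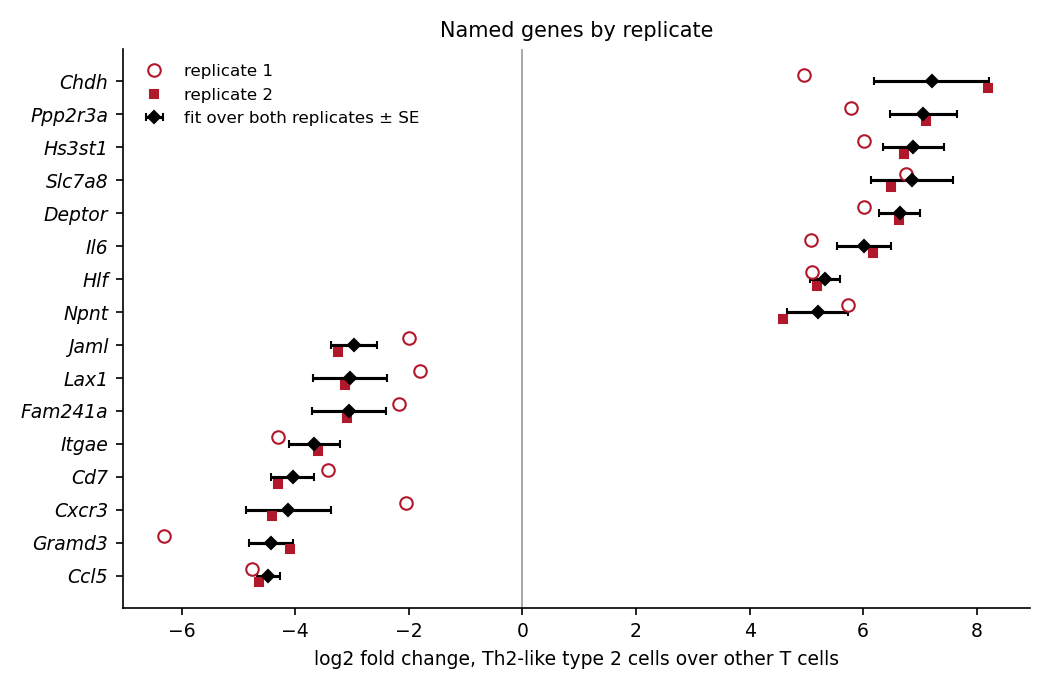
Log2 fold change of Th2-like over other T cells for the 8 genes with the largest rise and the 8 with the largest fall among those with at least 50 CPM in both replicates of the higher class (diamonds, fit over both replicates ± SE; open circles and filled squares, the ratio in replicate 1 and replicate 2 with 0.5 UMI added). Both replicates lie on the same side of 0 for each gene shown, and replicate 1 lies nearer to 0 than replicate 2 for most.

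Chdh and the type 2 cytokine genes have neighbours that were also examined. Chdh (chr14:30009023-30040527, plus strand) and Il17rb (chr14:29996135-30008896, minus strand) start 126 bases apart and run in opposite directions, in the interval printed above. Chdh was found in 5 and 15 Th2-like cells, of which 5 and 14 also held Il17rb, and Il17rb was part of the rule, so no test was made of the pair. In the type 2 cytokine locus, Il4 (chr11:53602982-53618669, minus strand), Il13 (chr11:53631324-53634702, minus strand) and Il5 (chr11:53720794-53725106, plus strand) belong to the rule. Rad50 (chr11:53649519-53707319, minus strand), a DNA repair gene between Il13 and Il5, was chosen after its values were seen. It stood at 164 and 173 CPM in Th2-like cells against 38.2 and 37.5 CPM, with a log2 fold change of 2.28 ± 0.31 and an edgeR adjusted p of 1.8e-11. Rad50 was found in 8 and 54 Th2-like cells, 6 and 43 of which held Il13, Il5 or Il4. Of the outer neighbours, Kif3a, at 27.3 and 61.8 CPM against 40.1 and 32.7 CPM, did not pass (adjusted p = 0.38). Irf1, a factor induced by interferon, had a log2 fold change of 1.20, at 1134 and 548 CPM against 303 and 378 CPM. Because the cells were chosen by 3 genes of this locus, Rad50 is not an independent sign of its activity.

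**Figure D4:**
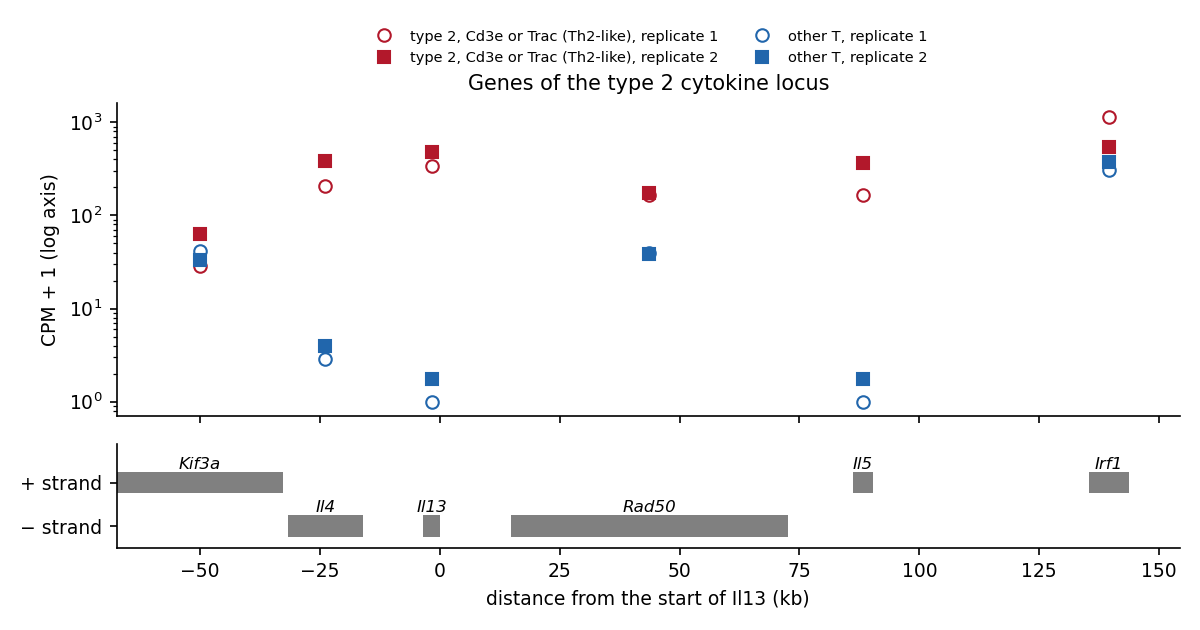
Level of genes of the type 2 cytokine locus in CPM plus 1 (log axis) in Th2-like and other T cells by replicate, above the position of each gene in kilobases from the start of Il13 and its strand. Il4, Il13 and Il5 chose the cells; Rad50, between Il13 and Il5, stands at 164 and 173 CPM in Th2-like cells and 38.2 and 37.5 CPM in other T cells.

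Within the Th2-like cells, those with an Il13 or Il5 UMI (9 and 84 cells) were set beside those with Il4 but neither (4 and 28) and those with Il17rb or Calca only (9 and 52). This split was chosen after the data were seen and is a description. Median depths were 3104 and 2825, 3302 and 2468, and 2830 and 2213 UMIs. Gata3 was present in all 3 subsets, at 703 and 950 CPM with Il13 or Il5, 291 and 616 CPM with Il4, and 498 and 752 CPM with Il17rb or Calca only. Areg was highest beside Il13 and Il5, at 543 and 927 CPM in the first subset, 0 and 239 CPM in the second and 178 and 501 CPM in the third. Il6 was highest there too, at 479 and 263 CPM against at most 62.7 CPM in the other subsets of either replicate. Il1rl1 was not highest there in replicate 2, with 423, 377 and 486 CPM.

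The 30 type 2 cells without Cd3e and Trac were examined cell by cell, because so few cells cannot carry a name by sums alone. UMIs of Cd3d, Cd3g, Trbc1 or Trbc2, which belong to the T cell receptor complex, were found in 25 of them, 8 of 9 in replicate 1 and 17 of 21 in replicate 2. A cell of replicate 1 held 15 UMIs of the basophil genes Mcpt8, Ms4a2, Fcer1a and Gata2, and a cell of replicate 2 held 34 UMIs of the macrophage genes Lyz2, C1qa and C1qb. Gata3 was found in 3 and 13 cells and Klrg1, a marker of ILC2s, in 0 and 3. Transcripts of the T cell receptor constant regions are also known from innate lymphoid cells, so these values identify no single cell, and the group is called by its rule alone. Their share of type 2 cells was 29.0% in replicate 1 (exact binomial interval 14.2 to 48.0) and 11.4% in replicate 2 (7.17 to 16.8).

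**Figure D5:**
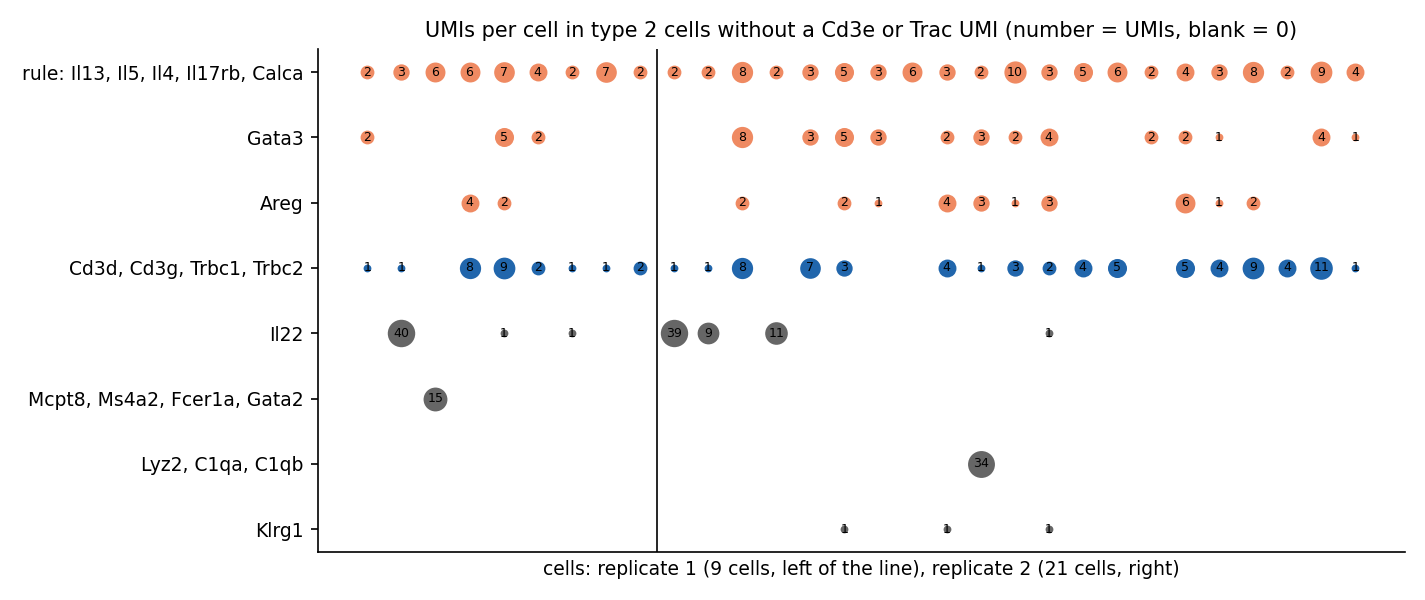
UMIs in each of the 30 type 2 cells without a Cd3e or Trac UMI, 9 of replicate 1 left of the line and 21 of replicate 2 right of it, for the genes that chose them, for Gata3, Areg, Il22 and Klrg1, and for sets of T cell, basophil and macrophage genes (the number is the UMI count, blank is 0). UMIs of Cd3d, Cd3g, Trbc1 or Trbc2 appear in 25 cells.

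Set against Th2-like cells, these 30 cells had 83 genes higher (1.21% of 6884) and 116 lower (1.69%) in edgeR, and 60 higher and 37 lower in DESeq2. This comparison shares the Th2-like sums with the first. Of 12 effector genes 0 were higher and 1 lower, and of 19 receptor genes 0 passed in either direction. Gata3 stood at 335 and 739 CPM against 547 and 840 CPM and did not pass (log2 fold change -0.58 ± 0.29, adjusted p = 0.38), nor did Areg (-0.80 ± 0.34). That they did not pass does not show that the levels were alike. T cell genes had 0 higher and 11 lower of 23, and 0 of these 11 kept their calls in each alternative fit that tested them. The split itself used Cd3e and Trac, so genes found in the same cells as these 2 are lower in part through the rule. This count is therefore a description, not a separate sign of cell type. Cd4 stood at 0 and 73.9 CPM (log2 fold change -3.84 ± 0.50), and Cd247, the zeta chain of the T cell receptor complex, had 0 UMIs, at least 3.29-fold lower over a floor of 3 UMIs. Type 3 genes had 8 higher and 1 lower of 17, with Il22, the cytokine of ILC3s, at 1563 and 1108 CPM against 205 and 215 CPM. Of the 8 higher calls 0 were kept in each alternative fit. In replicate 1, 95% of the Il22 UMIs came from 1 cell. Ccl3 and Ccl4, both chemokines and among the 8 genes with the largest rise, came wholly or mostly from 1 cell in each replicate. With the basophil-marker and macrophage-marker cells left out, an alternative chosen after seeing the data, Nlrp3 lost its call (log2 fold change 5.55 with all 30 cells, edgeR adjusted p = 0.82 without the marker cells). Its UMIs in the 30 cells came from 1 cell in each replicate, and Th2-like cells held 3 in all. Of the 8 genes with the largest rise above the same CPM limit only Ccl3 and Ptgs2 kept their calls in each alternative fit that tested them, and of the 8 with the largest fall (Cd247, Irf4, Camk4, Flt3l, Fxr2, Mxi1, Ppp2r3a and Grap2) none did.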

How the data were processed

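Deposited counts of UMIs per gene and cell came, per the file headers, from the BD WTA Multiplex Rhapsody pipeline 1.8 with GRCm38 and GENCODE vM19, which also called the sample tag of each cell (an entry other than a count). HISAT2 2.0.5 and Bowtie2 are listed, with no role, in the submitters' processing notes. The authors' counts are not normalised, and 21027 genes present in both tables were used (the others held 0.0343% and 0.0105% of UMIs). Coordinates are those of GENCODE vM21 on GRCm38.

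Kept cells had at least 300 genes and at most 25% mitochondrial UMIs. Other T cells also had at most 1 UMI of Mzb1, of Col1a1 with Col3a1, and of Lyz2 with C1qb. UMIs were summed over the cells of each class in each of 2 replicates, and CPM is UMIs of a gene per 1000000 UMIs of a sum. The sums of the 3 classes described, with those of 1 other class that is not reported here (8 sums in all), entered 1 edgeR 4.0.16 fit (quasi-likelihood, TMM, filterByExpr, replicate as a block, 3 residual degrees of freedom, R 4.3.3). Tests were two-sided, with Benjamini-Hochberg adjustment over 6884 genes for each of 2 comparisons. The 16 genes of the gates stayed in library sizes and out of the tests. The classes of a replicate come from 1 capture and tag, which pairs them; deviations from class means correlated between 0.0489 and 0.0994 in the 3 classes.

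Named genes were, for each comparison, the 8 with the largest change in each direction among those called, with both replicates moving the same way and at least 50 CPM in both replicates of the higher class (no mitochondrial, ribosomal protein, immunoglobulin or Gm and Rik genes), and any gene of the lists. Members, lists and the rule were chosen with earlier results of these data known. The fit was tested on simulated data for the comparison of Th2-like with other T cells: of 200 changed genes of at least 100 CPM among 6129, 83% of 2-fold and 100% of 4-fold changes were recovered, with 4 false calls among 187. The simulated counts were drawn with 1 spread for all genes. They therefore do not show how many false calls arise where genes differ in spread. Alternatives changed the model (DESeq2 1.42.0), filter, replicate block, depth, doublets (Scrublet in scanpy 1.11.5), gates and mitochondrial limit.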

Additional observations from a re-analysis of the deposited data

How the results depend on the processing

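Counts of calls moved by more than 1.5 times under several settings, and the cause was not tested except where fewer cells or genes entered. For Th2-like against other T cells the main counts were 330 higher and 201 lower. DESeq2 gave 184 and 72, the fit without the replicate block 208 and 105, cells thinned to 1500 UMIs 210 higher, and a limit of 10% mitochondrial UMIs, chosen after seeing the data, 207 and 129. For the cells without Cd3e and Trac against Th2-like cells (83 and 116) DESeq2 gave 37 lower, the fit without the replicate block 48 and 27, thinning 5 and 3, a rule of at least 3 UMIs 31 and 26, and, chosen after seeing the data, Th2-like cells with both T genes 75 lower, CD4 T cells 68 lower and the 10% limit 55 lower. Without the replicate block 28 and 22 named or listed calls of the 2 comparisons fell short of the threshold, and none turned direction.

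Ranges over the log2 ratios of single replicates crossed 0 in the first comparison for Tox2 (-0.18 to 1.26), Tcrg-C4 (-1.72 to 0.89), Ifng (-3.16 to 0.41), Gzmb (-1.61 to 0.054), Il17a (-1.55 to 2.75), Atf3 (-2.05 to 1.40) and Pim2 (-1.32 to 0.033). They did so for Ifng in the second (-6.55 to 0.98). With other T cells holding either T gene, Cd74 was -0.41 and Atf3 -0.32. In the second comparison thinning gave Tubb2b -0.13, Tnfsf8 0.053, Ifng 0.89 and Gzmb 0.47, and leaving out the basophil-marker and macrophage-marker cells, chosen after seeing the data, gave Nlrp3 -5.74 (fitted to almost no UMIs, adjusted p = 0.82) and Ier3 -0.051. The share of type 2 cells in replicate 2 was 3.54% with at least 3 UMIs and 3.52% with the 10% limit, against 4.42%. Lax1 lost its call in thinned cells (log2 fold change -2.57).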
